A study of Mus musculus with 68 samples.

Results

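Single apical progenitors (APs) that had spent 3 days in neurosphere culture were compared with APs taken directly from the E11 mouse cerebral wall, the tissue from which the cultures had been started. The neurosphere group held 3 cells and the E11 group 23, which together make 26 of the 68 single-cell microarrays in the series. All cells came from the dorso-lateral cerebral wall of wild-type CD1 mice. The neurospheres were grown in suspension from E11 cells in DMEM/F12 medium that held N2, B27, N-acetylcysteine, 20 ng per ml FGF2 and 20 ng per ml EGF. Per the study's methods the B27 supplement was the form that lacks vitamin A. The sample labels call the 3 cultured cells APs, and the study describes its APs from neurospheres as positive for Ki67, Sox2, Pax6 and Ttyh1 and negative for Tbr2. The labels give the 30 E11 cells by stage only. The 23 called APs here are those left after 3 cells typed as neurons, 3 typed as intermediate progenitors (IPs) and 1 of low quality were set aside, and that typing came from a clustering of the same arrays. As levels beside the comparison, 3 APs of E12 embryos and 4 APs of E14 embryos that had been electroporated at E11 with the Notch1 intracellular domain under the CAG promoter and the Cdk inhibitor p18 under the EF promoter (NICD/p18 APs) were read from arrays deposited together with the neurosphere arrays. Counts over the 28 cells of E16 embryos in the series, not split by cell type, are given in places. No label names the embryo, litter or culture of a cell.

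APs are the radially oriented stem cells that line the ventricle of the embryonic cortex. They divide at the apical surface, are kept undifferentiated by Notch signalling, and produce neurons directly or through IPs before they turn to glia. In neurosphere culture such cells grow as floating clusters under FGF2 and EGF, whose receptors act through the ERK pathway, and cultured cortical progenitors are known to give rise to neurons, astrocytes and oligodendrocytes. Olig1 and Olig2 are transcription factors of the oligodendrocyte lineage and of ventral progenitors, and Egr1 is a transcription factor induced within minutes by growth factors.

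Signals were compared on a log2 scale after quantile normalization of all 68 arrays. A level of 9.72 on this scale, a signal of 842, was the median of the phe spike RNA, of which 20 copies had been added to each cell, and serves below as the 20-copy level. Each array is 1 cell and no source of a cell is named, so each group counts as 1 sample. No p-value is given for any difference; the number of cells and the spread between them are the only measures of error. Cells on opposite sides of a gap are described as such. The exact 95% binomial interval of 0 of 23 cells is 0 to 14.8%, and that of 3 of 3 is 29.2 to 100%. These intervals cover counting error only and treat cells as independent draws, which the labels do not allow to be checked.

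The 3 neurosphere arrays each carried 2732 to 2811 genes at or above the 20-copy level, against 2710 to 2856 on the E11 AP arrays. The neurosphere, E12 and NICD/p18 arrays had been scaled to 1 common trimmed mean signal of 500.0, whereas that mean ran from 67.4 to 298 on the E11 AP arrays as deposited. Array scaling and culture therefore cannot be told apart in this comparison, and for this reason the E12 and NICD/p18 levels are given beside the main values. The median difference over all genes, neurosphere minus E11 APs, was 0.0082 after normalization and 1.82 in the signals as deposited. The phe spike was read at 9.57 and 10.70 in neurosphere APs 1 and 2 and at 3.71 in neurosphere AP 3, while the lys spike, of 1000 copies, lay between 12.02 and 12.63 in all 3. Across all probe sets, Pearson's r was 0.664 to 0.675 between neurosphere cells and 0.579 to 0.663 between neurosphere and E11 cells. It was 0.574 to 0.710 among E11 APs. Neurosphere cells reached 0.649 to 0.680 with the E12 APs, as high as with each other, and 0.560 to 0.662 with the NICD/p18 APs.

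Of 10789 genes tested, 427 (3.96%) had a mean at least 4-fold higher in the neurosphere APs and 142 (1.32%) a mean at least 4-fold lower, where the higher mean had to reach the 20-copy level. Without quantile normalization, and relative to the median difference, 306 were higher and 191 lower. Far fewer genes separated the cells: in 28 (0.260%) all 3 neurosphere cells lay above all 23 E11 APs, and in 11 (0.102%) all 3 lay below them. Both counts depended on the number of cultured cells. They were 82 and 27 without neurosphere AP 1, 85 and 16 without neurosphere AP 2, and 86 and 20 without neurosphere AP 3. In 24 of the 28 genes all 3 neurosphere cells were over the 20-copy level, and in 12 of the 28 no E11 AP was. Both held for 8 genes. Where a mean lay under the 20-copy level, the fold below is taken against that level and is written as a lower limit.

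**Figure D1:**
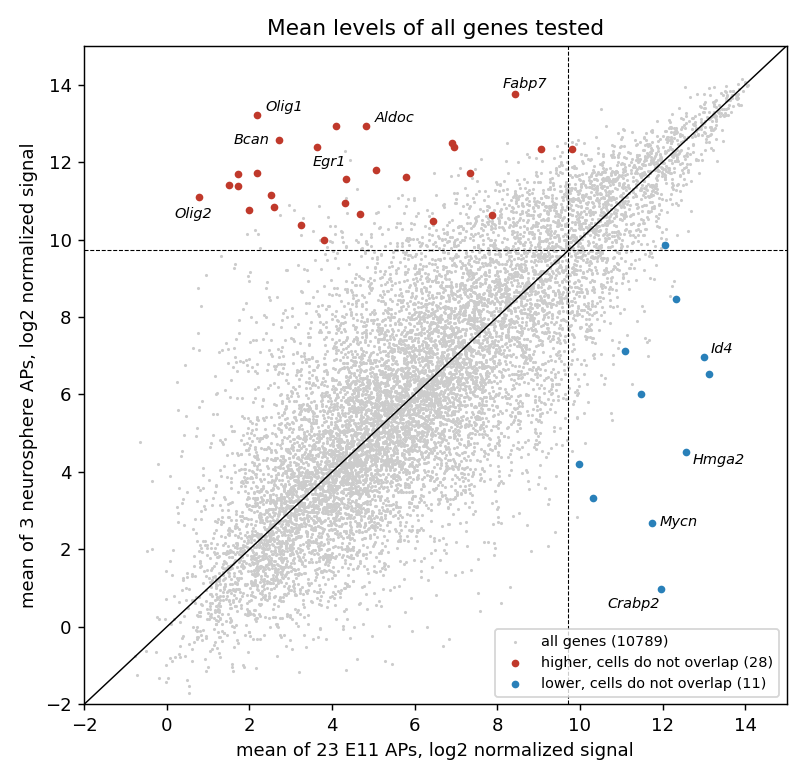
Mean log2 normalized signal of each of the 10789 genes in the 23 E11 APs (x axis) and the 3 neurosphere APs (y axis), with the diagonal of equal means and dashed lines at the 20-copy level of 9.72. Red points are the 28 genes in which every neurosphere cell lay above every E11 AP and blue points the 11 in which every one lay below; all red points except Dennd5a sit left of the vertical dashed line, under 20 copies in the mean of E11 APs.

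Of 17 AP markers measured, 4 were past 4-fold higher and 2 lower, against 3.96% and 1.32% of all genes. The other 11 were not past it, and the 3 cultured cells differed in which markers they carried. Vim, an intermediate filament of radial glia, was 13.56, 13.72 and 13.93 in neurosphere APs 1 to 3 and at a median of 13.24 in the E11 APs. Sox2, the stem cell transcription factor, was 10.34, 12.32 and 12.25, against a lowest, median and highest E11 level of 10.53, 11.96 and 12.89, so that neurosphere AP 1 lay just below the E11 range. Mki67, the proliferation marker, was 10.39, 11.09 and 12.04, inside the E11 range of 8.73 to 13.01. All 3 cells were thus over the 20-copy level for these genes. Pax6, a transcription factor of dorsal progenitors, was 10.45 and 11.59 in neurosphere APs 1 and 2 and 4.11 in neurosphere AP 3, below the lowest E11 level of 8.14. Ttyh1, an AP membrane protein, was 12.29, 11.13 and 7.97. The array of neurosphere AP 3 thus had both Pax6 and Ttyh1 under 20 copies, although the study describes its neurosphere APs as positive for both. The marker of IPs, Eomes (Tbr2), was 1.24, 3.58 and 4.35, and none of 23 E11 APs reached the level either. Over the AP list, 13, 9 and 7 of 17 members reached 20 copies in neurosphere APs 1, 2 and 3, and 7 to 13 in an E11 AP. No IP gene of 16 was past 4-fold. Dll3, a Notch ligand gene of that list, was 2.96, 4.16 and 11.49, over 20 copies in neurosphere AP 3 alone, against 5.03 at most in E11 APs.

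Olig1 and Olig2 had the largest differences of the means among the 28 higher genes. Of 15 oligodendrocyte lineage genes listed, 10 were measured, that is, had a probe set at the 20-copy level in at least 1 cell of the series. Of these, 4 were past 4-fold higher and 0 lower, against 3.96% of all genes higher, and the median difference was 3.91 against 0.0082 over all genes. The cultured cells count towards the 20-copy filter here and in every list, so a gene high in them alone enters through them. List counts and medians can therefore follow in part from the filter. Olig1 was 12.74, 13.30 and 13.64 in neurosphere APs 1 to 3. In the 23 E11 APs it was at 0.20 at the lowest, 1.93 at the median and 4.02 at the highest. No E11 cell came within 8 log2 units of a cultured cell, and the mean was at least 11.4-fold higher in culture (difference 11.04; SD 0.45, n = 3 and 1.25, n = 23). Olig1 was 5.69, 0.81 and 6.33 in the 3 E12 APs and at most 3.85 in the NICD/p18 APs. It was over the 20-copy level in 1 of 28 E16 cells, which were not split by type.

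Olig2 followed Olig1 in 2 of the 3 cells. It was 6.96 in neurosphere AP 1, under the 20-copy level, and 12.94 and 13.39 in neurosphere APs 2 and 3. The E11 APs ran from -2.46 through a median of 0.60 to 2.75, so the cultured cells did not overlap with them, and the mean was at least 2.60-fold higher. E12 APs were at 3.96 at the most and NICD/p18 APs at 0.40. RefSeq lists no protein-coding gene between Olig1 and Olig2 on mouse chromosome 16. The Olig2 promoter window of RefSeq (GRCm38.p6, chr16:91225300-91225599, plus strand, 250 bases before to 50 bases after the start) is shown because this gene split the 3 cells; the window of Olig1 was not used here. It held none of the 6 motifs searched on both strands, namely the SRF site, the cAMP response element TGACGTCA, the hypoxia element ACGTG, the sterol element TCACCCCAC, the RBPJ site TTCCCAC and the E-box CAGCTG, and so has no capitals.
Olig2: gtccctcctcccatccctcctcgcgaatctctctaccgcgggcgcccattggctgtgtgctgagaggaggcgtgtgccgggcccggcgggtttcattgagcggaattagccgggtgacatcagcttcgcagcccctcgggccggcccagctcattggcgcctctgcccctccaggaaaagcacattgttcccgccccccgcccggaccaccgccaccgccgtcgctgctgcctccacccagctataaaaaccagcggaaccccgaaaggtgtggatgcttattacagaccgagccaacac

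Genes of committed oligodendrocyte precursors were over 20 copies in neurosphere AP 3 alone. Pdgfra, the receptor that drives division of these precursors, was 0.22, 1.55 and 13.09 in neurosphere APs 1 to 3, against 3.20 at most in E11 APs. Sox10, a transcription factor of the lineage, was 6.98, 4.96 and 11.58, and its E11 maximum was 7.67. Gpr17, a receptor of precursors on the way to myelination, was 1.40, 3.90 and 11.02, and Cspg4 (NG2), their surface proteoglycan, was 0.13, 0.10 and 10.21. Neither was over 20 copies in any E11 AP. Cnp, a myelin enzyme, was 1.08, 1.48 and 11, against 6.46 at most in E11 APs. Neurosphere AP 3 lay above every E11 AP for each of these 5 genes, which were not past 4-fold by their means because 2 of 3 cells were low. The list counted 3, 4 and 9 of its 10 members over 20 copies in neurosphere APs 1, 2 and 3, and at most 1 in any E11 AP. Pdgfra and Sox10 were over 20 copies in no E11, E12 or NICD/p18 AP and no E16 cell. Both may have entered the list through neurosphere AP 3 alone, so the count of 9 in that cell may follow in part from the filter. Ptprz1, a phosphatase of progenitors and precursors, was 12.44, 11.86 and 12.87 in culture and had been over 20 copies in 16 of 23 E11 APs. Egfr differed with the probe set: the one with the highest mean was 7.45, 8.48 and 6.84, but on another of its sets neurosphere AP 2 was at 11.53 and the other 2 cells at 3.28 and 2.45. On a second probe set Sox10 was 2.69, 4.27 and 12.39, whereas 2 further sets of Pdgfra stayed under 20 copies in all 26 cells. Sox10 also marks neural crest, and no other gene of a list of 5 neural crest markers was measured. Of 10 measured markers of blood, microglia, vessel, mesenchyme and choroid plexus, none was past 4-fold and none reached 20 copies in a neurosphere cell; 1 E11 AP had all 3 measured blood genes over 20 copies.

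**Figure D2:**
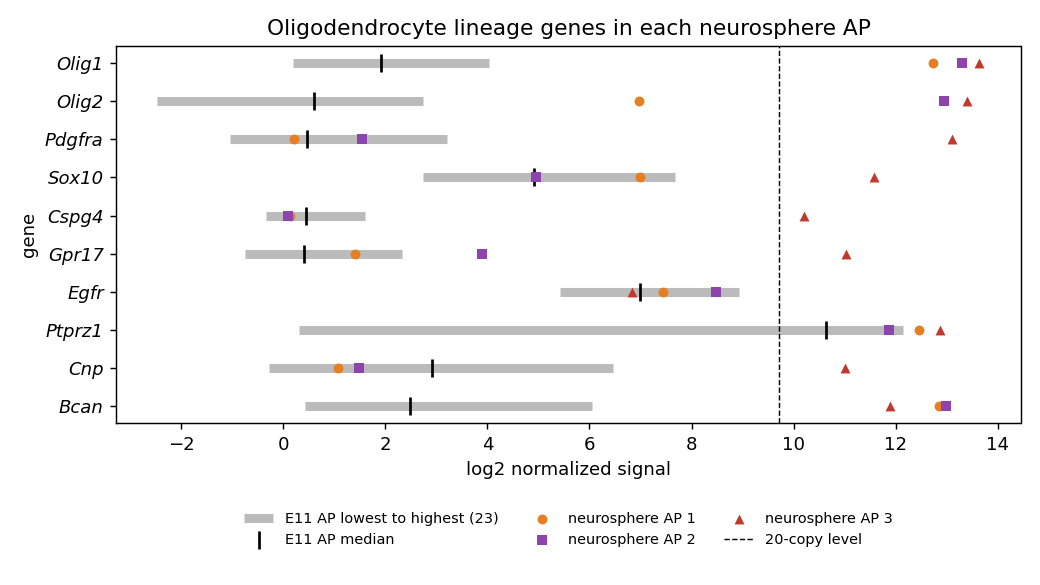
Log2 normalized signal (x axis) of the 10 measured oligodendrocyte lineage genes (rows) in each neurosphere AP, over grey bars from the lowest to the highest of the 23 E11 APs with the median as a tick; the dashed line is the 20-copy level. The triangles of neurosphere AP 3 sit right of that line for 9 of 10 genes, and only Olig1, Ptprz1 and Bcan lie right of it in all 3 cultured cells.

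Egr1, of the immediate-early genes, was the one that separated the cells. It was 12.48, 13.01 and 11.70 in the neurosphere APs. The 23 E11 APs ran from -0.57 through a median of 3.78 to 11.15, where only the highest cell passed 20 copies, and the mean was at least 6.39-fold higher in culture (difference 8.76; SD 0.66, n = 3 and 2.17, n = 23). Levels were 3.57 to 4.51 in E12 APs and at most 3.73 in NICD/p18 APs. Egr1 no longer separated the cells against all 30 E11 cells or without quantile normalization. Of 27 immediate-early genes listed, 18 were measured. Egr1 was the 1 past 4-fold, against 3.96% of all genes higher, and the list's median difference was 0.96. Fos, its classical companion, was 1.67, 10.31 and 4.43 and the nuclear receptor Nr4a1 4.40, 10.26 and 7.36, so both were over 20 copies in neurosphere AP 2 alone. The phosphatase gene Dusp1 was 6.95, 9.07 and 11.73, and Ier2 9.84, 4.30 and 11.47. Dusp1 had reached 12.71 and Ier2 11.18 in an E11 AP. Ier5 differed the other way, at 0.25, 4.15 and 3.51 against an E11 median of 10.04.

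Among feedback inhibitors and targets of ERK signalling 1 of 16 measured genes was past 4-fold higher, against 3.96% of all genes. The list's median difference was 2.63, and 13 of its genes had a difference above 0 and 3 below. That gene was Etv5, an ETS factor induced by FGF: it was 12.50, 11.34 and 12.30, against -0.78, 3.37 and 11.67 as the lowest, median and highest of E11 APs, and at least 5.02-fold higher by its mean. E12 APs were at 2.40 to 3.10 and 3 of 4 NICD/p18 APs were over 20 copies. Other probe sets of Etv5 did not separate the cells. On one of them it was 3.65, 3.46 and 4.03, inside the E11 range of 1.61 to 10.44, with a difference of -0.11. On another it was 7.17, 3.88 and 7.74, inside the E11 range of -0.68 to 9.96, with a difference of 3.00. No cultured cell was over 20 copies on either set. Dusp6, the phosphatase that switches off ERK, was -0.56, 10.34 and 11.64, against 3.48 at most in E11 APs. Like Spry4, it was over 20 copies in no E12 or NICD/p18 AP and no E16 cell, so both may be measured through the cultured cells alone. Spry1, a receptor tyrosine kinase inhibitor, was 4.91, 12.07 and 12.07, and Spry2 was 7.83, 10.86 and 3.51. Dusp4 showed the opposite pattern, at 11.69 in neurosphere AP 1 and 3.59 and 1.05 in the other 2. Spry4, at 8.01, 9.86 and 8.24, and Phlda1, at 9.53, 9.30 and 9.28, lay above all 23 E11 APs in all 3 cells but near or below 20 copies. Of 8 measured genes of the receptor list, 1 was past 4-fold higher, against 3.96% of all genes. Fgfr1 was 11.76, 12 and 12 against an E11 highest of 11.63, a 2.59-fold difference of the means, and Fgfr3, the 1 past 4-fold, was 12.48, 11.48 and 9.87 against an E11 median of 9.34.

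Genes of late radial glia and astroglia included 4 that separated the cells, Fabp7, Aldoc, Tnc and Ednrb. Of 17 listed, 14 were measured, 5 were past 4-fold higher and 1 lower, against 3.96% and 1.32% of all genes, and the median difference was 3.04. Fabp7 (BLBP), the fatty acid binding protein of radial glia, was 13.78, 13.79 and 13.75 in culture. It varied from 0.18 to 12.83 around a median of 9.56 in the E11 APs, 11 of which were over 20 copies, and its mean was at least 16.6-fold higher in culture. It was 11.02 to 11.25 in E12 APs and 13.76 to 13.98 in NICD/p18 APs. Ednrb, the endothelin B receptor, was 11.16, 11.68 and 12.26, with an E11 median of 1.25 and 1 E11 cell over 20 copies at 10.49. Tnc (tenascin C), a matrix glycoprotein of the germinal zone, was 13.06, 9.75 and 10.65, while no E11 AP exceeded 4.39 and no E12 AP 3.26; on a second probe set it was 9.37, 4.42 and 10.17, so only neurosphere AP 3 was over 20 copies there. Glul, glutamine synthetase, was 11.50, 12.48 and 10.77 against an E11 median of 7.62. The gap junction gene Gja1, the 1 lower member, was 10.48, 11.29 and 2.59, so that only neurosphere AP 3 was below the E11 range of 4.64 to 12.72 and the difference without it was 0.29. Gfap, the filament of mature astrocytes, was 4.50 or lower in the cultured cells. Apoe, Clu and Aldh1l1, also of this list, were under 20 copies in all 3 cultured cells and in every E11 AP. They were over 20 copies in 4, 4 and 3 of the 4 NICD/p18 APs.

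The chondroitin sulphate proteoglycans Bcan (brevican) and Ncan (neurocan), both secreted into brain matrix, separated the cultured cells from E11 APs. Bcan was 12.84, 12.99 and 11.89, at least 7.23-fold over E11 APs, which ran from 0.44 through 2.48 to 6.04. E12 APs were at 4.57 to 6.04 and the NICD/p18 APs at 12.87 to 13.77. On a second probe set Bcan was 11.07, 11.61 and 6.84, so neurosphere AP 3 was under 20 copies there, though above the E11 highest of 6.19. Ncan was 13.15, 11.86 and 12.44 against 1.07, 5.12 and 11.61, with 10 of 23 E11 APs over 20 copies, and at least 6.79-fold higher; on a second probe set, which no E11 AP carried over 20 copies, it was 9.28, 1.78 and 1.44, and only neurosphere AP 1 lay above the E11 APs. The RefSeq window of Ncan (GRCm38.p6, chr8:70120795-70121094, minus strand) is shown because it held the largest number of different motifs, 3, among the genes that separated the cells; capitals mark the RBPJ site, the hypoxia element and the E-box in that order. Among the 23 higher genes with a window, 3 held the RBPJ site, 6 the hypoxia element and 4 the E-box. The shares were 7.25%, 21.8% and 18.3% of 27025 genes with windows of the same length. No SRF site was found in these windows, against 1.81% of all. Egr1 and Olig1 were not among the 23 genes, so their promoters were not searched for any motif.
Ncan: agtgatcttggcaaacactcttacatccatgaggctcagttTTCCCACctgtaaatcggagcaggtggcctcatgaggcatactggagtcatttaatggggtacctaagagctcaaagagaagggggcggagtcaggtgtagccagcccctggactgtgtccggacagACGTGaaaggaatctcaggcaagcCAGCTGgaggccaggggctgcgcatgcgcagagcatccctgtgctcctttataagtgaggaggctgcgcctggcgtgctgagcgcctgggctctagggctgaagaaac

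The other leading genes included some that E12 APs shared. Ptn (pleiotrophin), a secreted growth factor, was 13.16, 12.95 and 12.69 in culture and 11.18, 12.25 and 12.91 in the E12 APs. On 2 other probe sets Ptn was 10.08, 9.41 and 10.91 and 6.17, 10.25 and 9.93, where E11 APs reached 10.18 and 8.60 and so overlapped, and with the 26 arrays normalized alone Ptn and Son no longer separated the cells. Aldoc, the brain aldolase, was 13.26, 12.98 and 12.58 in culture and 11.72 to 12.93 at E12. Against E11 APs their means were at least 9.30-fold and 9.33-fold higher, and 5 E11 APs had Ptn and 1 had Aldoc over 20 copies. Trib2, a pseudokinase, was 12.03, 12.23 and 12.94 against an E11 median of 8.22 and a highest of 11.37. Acot1, an acyl-CoA thioesterase, was 12.14, 12 and 11.27, close above its highest E11 cell at 11.23. Naxd, which repairs NAD(P)H hydrates, was 11.44, 12.47 and 11.26, and E11 APs reached 10.39. For Son, a splicing factor, and Dennd5a, a Rab GTPase regulator, the gaps were narrow: Son was 12.27 to 12.43 against 11.48 at most and Dennd5a 12.19 to 12.50 against 12.09. A second probe set of Son was 9.87, 10.47 and 10.41, inside its E11 range of 1.88 to 12.28. The further probe sets of Aldoc and Trib2, and those of Mycn and Cdca7 among the lower genes below, were under 20 copies in all 26 cells. The remaining 16 of the 28 genes had differences of 2.77 to 10.32, and no E11 AP was over 20 copies in 10 of them. They include Dner, a Notch ligand of neurons and glia (11.32, 11.97 and 11.88; E11 median 1.47), Pcdh8, a protocadherin (12.41, 10.36 and 11.46; E11 highest 3.16), and Sall3, a zinc finger factor (11.47, 11.82 and 9.21; E11 highest 5.29).

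Of the 28 genes, 12 were over 20 copies in all 4 NICD/p18 APs and 8 in none of them. The first set held Fabp7, Aldoc, Ptn, Bcan, Ncan, Trib2, Son, Dennd5a, Tnc, Dner, Pcdh8 and Adcyap1r1. The second held Olig1, Olig2, Egr1, Sall3, Lmo4, Sipa1l2, Naxd and Atp6v0e2. In the E12 APs 4 of the 28 were over 20 copies in all 3 cells, namely Fabp7, Aldoc, Ptn and Son, and 16 in none. The neurosphere cells lay above all 3 E12 APs for 24 of the 28 genes, with Aldoc, Ptn, Atp6v0e2 and E2f5 as the exceptions. E2f5 lost its place under another scaling: its difference was 2.77 here, -1.24 with only the 26 arrays normalized together and -0.56 without quantile normalization. Without quantile normalization 18 of the 28 higher genes and 6 of the 11 lower genes still separated the cells. The higher genes that then overlapped were Acadl, Acot1, Anxa6, Arhgef40, Atp6v0e2, Dennd5a, E2f5, Ednrb, Egr1 and Ncan, and the lower ones Cdca7, Cxadr, Plagl1, Psip1 and Rrs1.

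**Figure D3:**
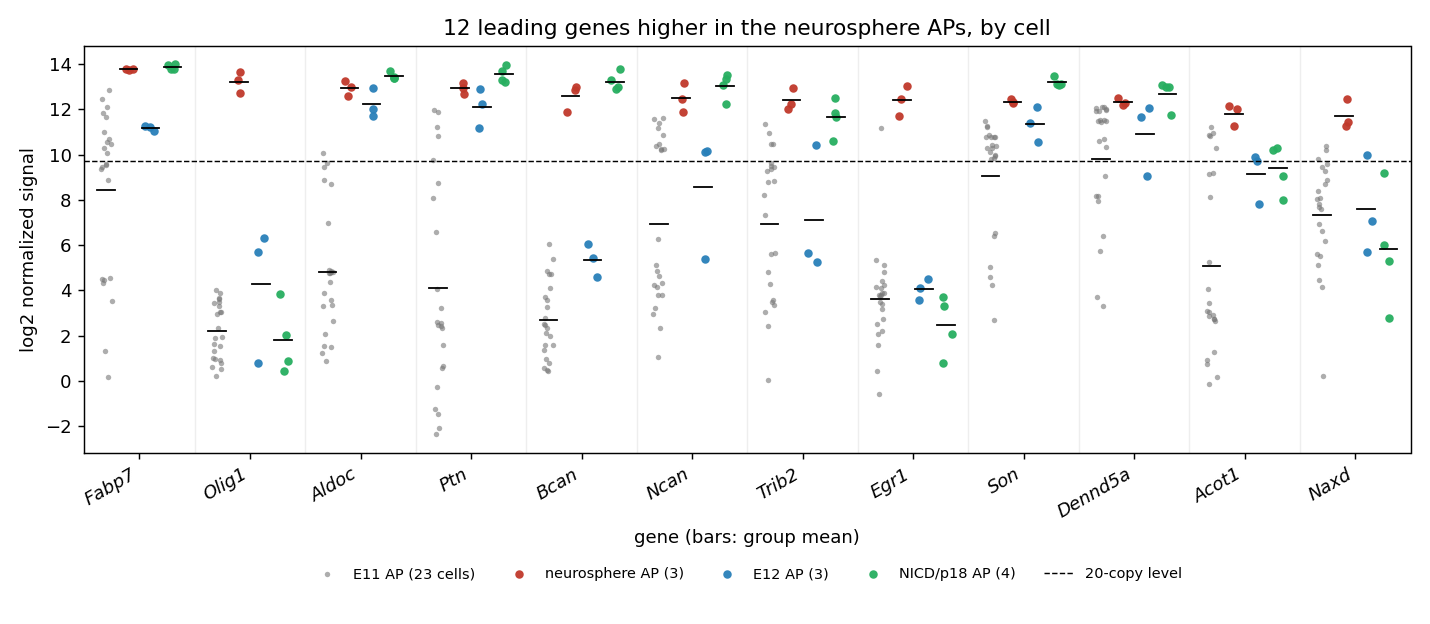
Log2 normalized signal (y axis) of each cell for the 12 leading genes higher in the neurosphere APs (x axis), in the 23 E11 APs, 3 neurosphere APs, 3 E12 APs and 4 NICD/p18 APs; short bars are group means and the dashed line is the 20-copy level of 9.72. Olig1 and Egr1 are over the line in the neurosphere APs but in no E12 or NICD/p18 AP, whereas Fabp7, Aldoc and Ptn are over it in every cell of those groups.

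The 18 temporal-axis genes, which the study had picked on E11 and E14 arrays of its own as higher at one or the other age, are not independent evidence of a shift from E11. Of the 9 that are high at E14, 4 were past 4-fold higher in culture and 0 lower, against 3.96% of all genes higher, with a median difference of 7.45. Besides Ptn, Ednrb and Aldoc these were Rlbp1, a retinoid-binding protein of glia, at 12.06, 11.50 and 8.07 against an E11 median of 3.43. Pag1, a membrane adaptor, was 11.99, 1.92 and 10.92, and Adgrb3, an adhesion receptor, 7.12, 10.86 and 9.23, so each was over the E11 maximum in 2 of 3 cells and below 20 copies in at least 1. Zbtb20, a zinc finger repressor, was 4.84, 5.55 and 4.57, with no cell of either group over 20 copies, though 2 of its other probe sets were at 10.12 and 9.91 in neurosphere AP 1. Sema5a and Epha5 overlapped with E11 APs in 2 of 3 cells.

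Of the 9 genes high at E11, 2 were past 4-fold lower, against 1.32% of all genes, 0 were higher, and the median difference was -3.89. Crabp2, which carries retinoic acid in the cytoplasm, was 1.76, 0.99 and 0.17 in culture and 7.15 to 13.22 in E11 APs, 22 of 23 of them over 20 copies. Its mean was at least 4.75-fold lower. It was 9.26 to 11.40 in the E12 APs and 8.39 at most in NICD/p18 APs. Tubb3 was 3.87, 9.69 and 8.95. Fndc3c1 was 2.43, 2.08 and 1.73 and Dmrt3, a patterning factor, 4.14, 2.64 and 3.13, against E11 medians of 10.89 and 10.52. Both were under 20 copies in all 3 cultured cells, and in 8 and 11 of the 23 E11 APs. Flrt3 was 0.07, -0.30 and 10.58, low in 2 cells and inside the E11 range in neurosphere AP 3. Sulf2, an extracellular sulphatase, differed from the other 8: it was 9.92, 10.59 and 10.57, over 20 copies in all 3 cultured cells and in 11 of 23 E11 APs, while the E12 APs were at 2.54 to 4.46.

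**Figure D4:**
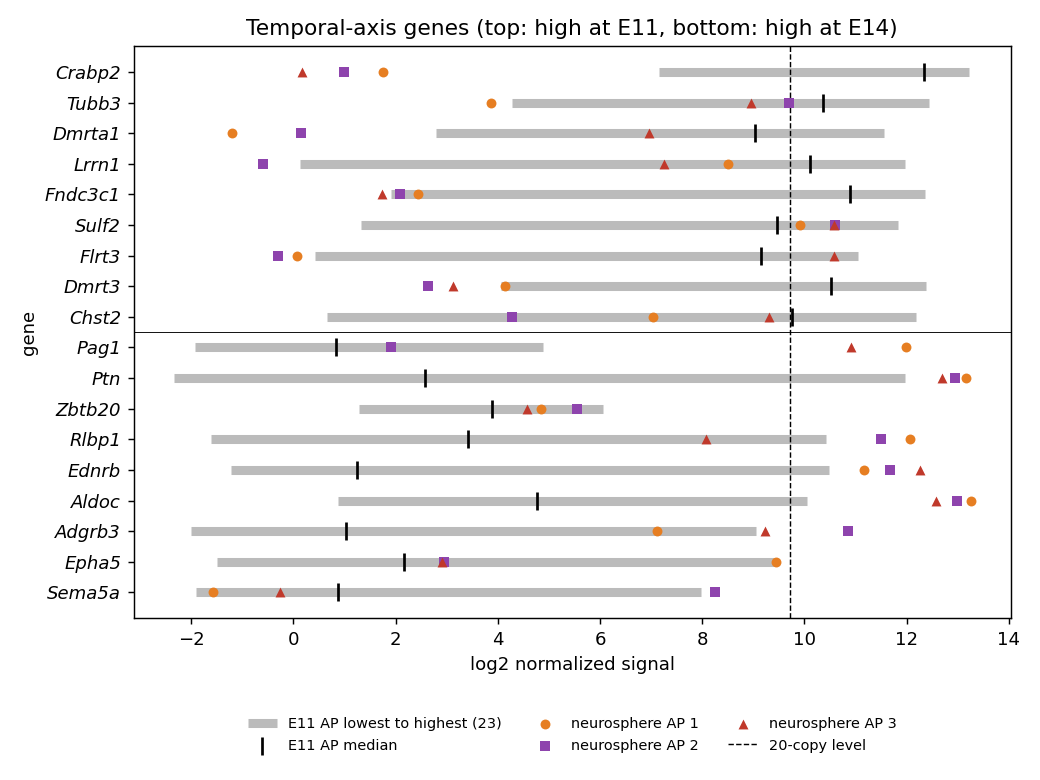
Log2 normalized signal (x axis) of the 18 temporal-axis genes (rows; the 9 high at E11 above the line, the 9 high at E14 below it) in each neurosphere AP, over grey bars from the lowest to the highest of the 23 E11 APs with the median as a tick; the dashed line is the 20-copy level. Ptn, Ednrb and Aldoc lie right of the E11 bar in all 3 cells and Crabp2 left of it, whereas Sulf2 lies inside it.

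In 8 of the 11 genes with every cultured cell below every E11 AP no cultured cell was over 20 copies. Hmga2, a chromatin protein of fetal stem cells, was 5.19, 4.72 and 3.62 in the neurosphere APs and 9.67, 12.78 and 13.43 at the lowest, median and highest in E11 APs. It was at least 7.23-fold lower, and a second probe set gave the same gap (2.16, 0.18 and 2.83 against 9.73 or more). On another set it differed the other way, at 3.52, 1.95 and 10.18 against an E11 highest of 8.52, and on a further set, over 20 copies in 3 E11 APs, the groups overlapped. Its E12 levels were 11.94, 7.38 and 11.63 and 1 of 4 NICD/p18 APs was over 20 copies. Mycn, which drives growth of neural progenitors, was 1.93, 3.67 and 2.47 against 7.10, 11.95 and 13.15, at least 4.05-fold lower, with E12 APs at 10.14 to 11.88 and no NICD/p18 AP over 20 copies. Its paralogue Myc was 7.69, 9.38 and -1.09. Mdk (midkine), the sister factor of Ptn, was 9.10, 8.54 and 7.74 against 10.83, 12.23 and 13.20, at least 6.07-fold lower. Cdca7, a Myc and E2F target, was 4.19, 8.49 and 5.33 against an E11 median of 11.60, and no NICD/p18 AP exceeded 3.90. The RefSeq window of Hmga2 (GRCm38.p6, chr10:120476420-120476719, minus strand) is shown as that of the gene with 2 agreeing probe sets; it held none of the 6 motifs.
Hmga2: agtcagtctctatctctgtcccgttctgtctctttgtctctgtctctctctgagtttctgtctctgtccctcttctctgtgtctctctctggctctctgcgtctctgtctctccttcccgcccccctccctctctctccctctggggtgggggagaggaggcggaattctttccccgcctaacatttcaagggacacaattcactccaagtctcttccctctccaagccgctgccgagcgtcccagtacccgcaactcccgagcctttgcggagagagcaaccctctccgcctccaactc

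Id4 and Plagl1 separated neurosphere AP 1 from the other 2 cultured cells. Id4, an inhibitor of bHLH factors in progenitors, was 11.13, 4.68 and 5.08 against 11.91, 13.04 and 13.60, and a second probe set read 9.79, 0.61 and 1.67 against 7.57 or more. Plagl1 (Zac1), an imprinted growth regulator, was 11.66, 2.81 and 5.10 against 12.04, 13.21 and 13.51. On the probe set given first for each gene, neurosphere AP 1, the cell without Olig2 over 20 copies, lay just below the lowest E11 AP. The other 2 cells were at least 6 log2 units below it. All 3 E12 and all 4 NICD/p18 APs were over 20 copies for both. The means were at least 9.73-fold and 10.6-fold lower in culture; 2 further probe sets of Plagl1, over 20 copies in 0 and 1 E11 APs, had overlapping groups. The last 4 of the 11 genes were Psip1, a chromatin reader (9.84 to 9.89 against 9.95 or more), Cxadr, a junction protein, Mex3b, an RNA-binding protein, and Rrs1, a ribosome biogenesis factor, whose E11 APs were over 20 copies in 23, 21, 17 and 15 of 23 cells. A second probe set of Psip1 was 7.26, 5.73 and 11.23 against 10.42 or more, so neurosphere AP 3 overlapped there.

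**Figure D5:**
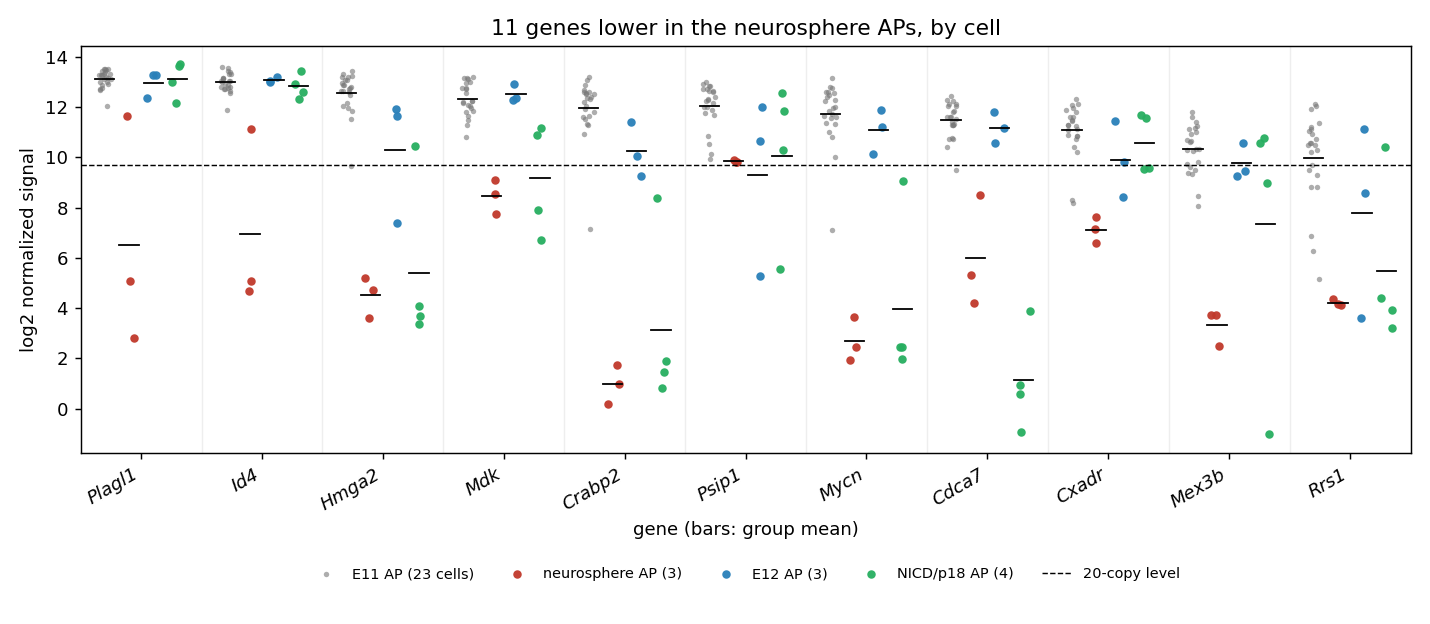
Log2 normalized signal (y axis) of each cell for the 11 genes in which every neurosphere AP lay below every E11 AP (x axis), in the 23 E11 APs, 3 neurosphere APs, 3 E12 APs and 4 NICD/p18 APs; short bars are group means and the dashed line is the 20-copy level of 9.72. For Plagl1 and Id4 1 neurosphere AP lies over the line and 2 under it, whereas for Hmga2, Crabp2 and Mycn all 3 lie under it.

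Several dorsal patterning and Hedgehog genes were low in neurosphere APs 2 or 3. Of 12 measured patterning genes 2 were past 4-fold lower and 0 higher, against 1.32% of all genes lower, and the median difference was -2.43. Of 10 measured Hedgehog genes 4 were past 4-fold lower, with a median difference of -1.94. Gli3, the repressor that both lists share, was 11.95, 8.34 and 4.6 against an E11 median of 11.77, and Emx2, a cortical homeobox factor, was 10.56, 9.80 and 4.22 against 11.45. Cdon and Smo, both of the receptor complex, were 11.67, 6.14 and 5.91, and 12, 7.12 and 7.53. Neurosphere AP 1 lay inside the E11 range for Gli3, Cdon and Smo, and the other 2 cells were under 20 copies for all 3. Ptch1, a target of the pathway, was 0.70, 2.49 and 11.32, above the E11 maximum of 10.27 in neurosphere AP 3. Lhx2, a factor of cortical identity, stayed at 12.32, 12.37 and 11.50, and no member of the ventral telencephalon list reached 20 copies in any cell of the series.

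Differences of Notch and cell cycle genes lay on both sides of 0. Of 22 measured Notch genes 3 were past 4-fold higher and 0 lower, against 3.96% and 1.32% of all genes, and the median difference was 0.07. They were Dner, the effector Hes5 (12.19, 9.45 and 11.46; E11 median 7.68) and the receptor Notch1 (11.46, 11.88 and 9.90; E11 median 9.83). Of 24 measured genes of DNA replication and G1/S, 0 were past 4-fold higher and 2 lower, and of 24 of G2 and mitosis 0 and 1. The same shares of all genes stand beside these counts. Neurosphere AP 2 had 19 of the 24 replication genes and 16 of the 24 mitosis genes over 20 copies, and neurosphere APs 1 and 3 had 7 and 8 of the first and 20 and 21 of the second. The E11 APs ran from 8 to 18 and from 5 to 23. Mcm2, of the replicative helicase, was 2.52, 11.43 and 9.16 and Ccnb2, a mitotic cyclin, 11.55, -0.18 and 11.22, so each of these low means turned on 1 cell: without neurosphere AP 1 the difference of Mcm2 was 0.11, and without neurosphere AP 2 that of Ccnb2 was 0.24. Among 14 measured ribosome biogenesis genes 13 had a difference below 0, with a median difference of -1.57. Past 4-fold lower were 3 (Rrs1, Gar1 and Gnl3), against 1.32% of all genes.

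The metabolic and stress lists held 0 to 2 genes past 4-fold higher each. The shares of all genes to set beside each list here were 3.96% higher and 1.32% lower. Of 22 measured sterol and fatty acid genes 2 were past 4-fold higher (Nsdhl and Dhcr7), of 25 glycolysis and hypoxia genes 2 (Aldoc and Hk1) with Tpi1 lower, of 22 amino acid and stress response genes 2 (Aars and Psph) and of 14 unfolded protein and heat shock genes 1 (Manf). Their median differences were 0.19, -0.31, -0.04 and 0.22. None of 9 oxidative stress genes, 9 p53 targets and 6 housekeeping genes was past 4-fold. Of 20 measured matrix and integrin genes 3 were higher, namely Tnc, Ncan and the integrin subunit Itga6, and of 18 junction and polarity genes 2 were lower, namely Cxadr and Gja1. Among 14 neuron genes Map2, a dendritic microtubule protein, was higher at 9.23, 12.59 and 12.60, and Tubb3 lower. The list of D cyclins, CDK inhibitors and Myc genes held Cdkn2d as higher and Mycn as lower among 15, and that of interferon and antigen presentation H2-K1 as higher among 7. Of 15 Wnt genes none was past 4-fold, of 13 BMP and TGF-beta genes Id4, of 4 retinoid genes Crabp2 and of 3 heterochronic genes Hmga2 were lower. None of 4 sex-linked genes was past 4-fold.

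Beyond the lists, the cultured cells also differed from each other in genes that no E11 AP carried. Of 2536 genes that were under 20 copies in all 23 E11 APs, 8 were over it in all 3 neurosphere cells, 33 in 2 and 274 in 1. The same counts in the 3 E12 APs were 0, 8 and 171. A gene was tested if any cell of the series reached the level, so a gene high in 1 cultured cell alone enters through that cell. The same holds for the E12 cells, and the counts can follow in part from this filter. The 8 genes over 20 copies in all 3 neurosphere cells were Olig1, Bcan, Tnc, Pcdh8, Pmp22, Anxa6, Adcyap1r1 and Arhgef40. Among genes over 20 copies in 1 cultured cell only, 93 belonged to neurosphere AP 1, 65 to neurosphere AP 2 and 116 to neurosphere AP 3. The highest in neurosphere AP 1 were Sema6d, a semaphorin (12.33), and Ano1, a chloride channel (12.22). Those of neurosphere AP 2 were Kitl, a growth factor (11.98), and an unnamed reading frame, 4931406C07Rik (11.52). In neurosphere AP 3 they were Pdgfra (13.09) and the monooxygenase-like Moxd1 (12.28), with Smoc1, a secreted calcium-binding protein (11.70), among the 8 highest. These genes were named after their values had been seen.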

How the data were processed

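The 68 arrays each hold amplified cDNA of 1 mouse cell with 4 spike RNAs, and the deposited values are Affymetrix signal intensities, which the submitters' processing notes credit to MAS5; the scaling target is not given in the sources used here. The 10 E12, neurosphere and NICD/p18 arrays were deposited at 1 trimmed mean (2% off each end) and the other 58 were not. For this comparison the intensities of all 68 arrays were quantile normalized and log2 transformed. Of 45101 probe sets, 34958 had 1 gene symbol, 932 several and 9211 no entry in the annotation table. The probe set with the highest mean among those reaching the 20-copy level in at least 1 cell stood for its gene. Past 4-fold means a difference of at least 2 (log2) with the higher mean at or above that level. The number of arrays limits the precision.

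The E11 types come from the study's clustering. The members, the 39 gene lists and the comparison were chosen with earlier results of these data known. Named genes are Olig1, Egr1, at most 12 in each direction that separate all single cells, by bounded fold, list members that separate the cells, the study's AP markers, the temporal-axis genes and members of the oligodendrocyte, immediate-early and ERK lists; other genes past 4-fold in a list were named after their values had been seen. No test was run, since each group counts as 1 sample. Alternatives covered normalization, offset, probe set rule, filter, 20-copy level, mean or median, E11 cells used and leaving out each neurosphere cell. RefSeq windows (GRCm38.p6) were searched for 6 motifs on both strands. Python 3.11.15 with numpy 2.4.6, pandas 2.3.3, scipy 1.17.1 and matplotlib 3.10.9 was used, and the comparison was tested on simulated data.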

Additional observations from a re-analysis of the deposited data

How the results depend on the processing

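Of the single genes named, 124 were recomputed under 14 settings, and of the resulting 1710 differences 1590 moved by less than the SD between cells, 113 moved by more and 7 changed sign. Past 4-fold were 427 genes higher and 142 lower. With log2(signal + 100) the total was 304, with 214 higher and 90 lower, and the differences were 6.51 for Olig1 and 5.41 for Egr1. With the mean over a gene's probe sets it was 343, with 268 higher and 75 lower, and 5 genes lay below every E11 AP. With medians over cells it was 885, of which 351 were lower. Against all 30 E11 cells 82 were lower, 18 lay above every cell and 2 below. Leaving out 1 neurosphere cell gave totals of 797 to 898, with 639 to 708 higher, 82 to 86 above every E11 AP and 16 to 27 below. Signs changed for E2f5 (-1.24 with the 26 arrays normalized alone and -0.56 without quantile normalization), Adcyap1r1 (-1.28 without a filter, where another probe set stood for it) and Dhcr7 (-0.66 with medians), and the leave-one-out ranges crossed 0 for Gja1 (-4.05 to 0.29), Mcm2 (-4.34 to 0.11) and Ccnb2 (-5.62 to 0.24). The cause was not tested for the others. Leaving out the E11 AP with blood genes, an alternative chosen after seeing the data, gave 429 higher and 143 lower. No paired analysis was possible because replicate numbers only count cells within a group and no test was run. Signals under the 20-copy level limit the folds to lower bounds.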
